A study of Mus musculus with 8 samples.

Results

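The genes described here are 32 genes of cholesterol and fatty acid synthesis that sterol regulatory element-binding proteins (SREBPs) are known to control, or that control SREBPs, in a mouse pre-osteoblast line, MC3T3, which lays down mineralized matrix in culture. They were taken by symbol from a count table of 43346 genes, and each of the 32 symbols matched 1 row. The LLC-CM group of 4 libraries came from cells kept for 7 days in 25% conditioned medium, the filtered serum-free supernatant of LLC1, a line of mouse Lewis lung carcinoma. The NCM group of 4 libraries is read here as the vehicle control, since it is the group left over and its abbreviation is not explained in the labels. Both groups were kept for 7 days. Both also received 10 mM beta-glycerophosphate and 100 µg/mL ascorbic acid, additions commonly used to let this line mineralize. The study asked how the tumour cell medium alters RNA levels in osteoblasts. All libraries are from 1 cell line. No label states that replicates are separate cultures, and the p-values therefore reflect just the spread between these libraries, which may be technical.

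Cells build cholesterol from acetyl-CoA through mevalonate, the isoprenoid farnesyl diphosphate, squalene and a chain of sterols. The precursor form of an SREBP sits in the endoplasmic reticulum with its escort Scap, and sterols hold it there through the Insig proteins. When membrane sterol runs low, the complex moves to the Golgi, the SREBP is cut free, and it switches on the synthesis genes, with Srebf2 directed more at sterol genes and Srebf1 more at fatty acid genes. In osteoblasts the same route supplies membrane, isoprenoid anchors for small GTPases (the branch that nitrogen-containing bisphosphonates block in osteoclasts), and the sterols themselves.

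In LLC-CM the genes did not move as one group. Desaturases (Scd1, Scd2 and Fads2), 2 late sterol enzymes (Msmo1 and Dhcr7) and both Insig genes fell by between 1.40-fold and 2.40-fold. Ebp, a sterol isomerase, rose 1.61-fold, and Pmvk, Mvk and Nsdhl rose by less. The messages of Srebf2, Srebf1 and Scap themselves were not called. In bulk RNA, fewer cells of a type and less RNA per cell cannot be told apart.

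All 32 genes passed the filter on low counts. With edgeR's quasi-likelihood test, 16 of them had an adjusted p below 0.05 (called), a share of 50% against 36.9% of all 14991 genes tested. Higher calls numbered 4 (12.5% against 18.8% of all genes) and lower calls 12 (37.5% against 18.1%). The 4 values of one group lay wholly beyond those of the other for 14 of the 32 genes (43.8%), against 36.3% of all genes. The median log2 fold change (LLC-CM over NCM) was -0.12 over the 32 genes and 0.01 over all genes tested. Scd1 and Dhcr7 were the only members past 2-fold.

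**Figure D1:**
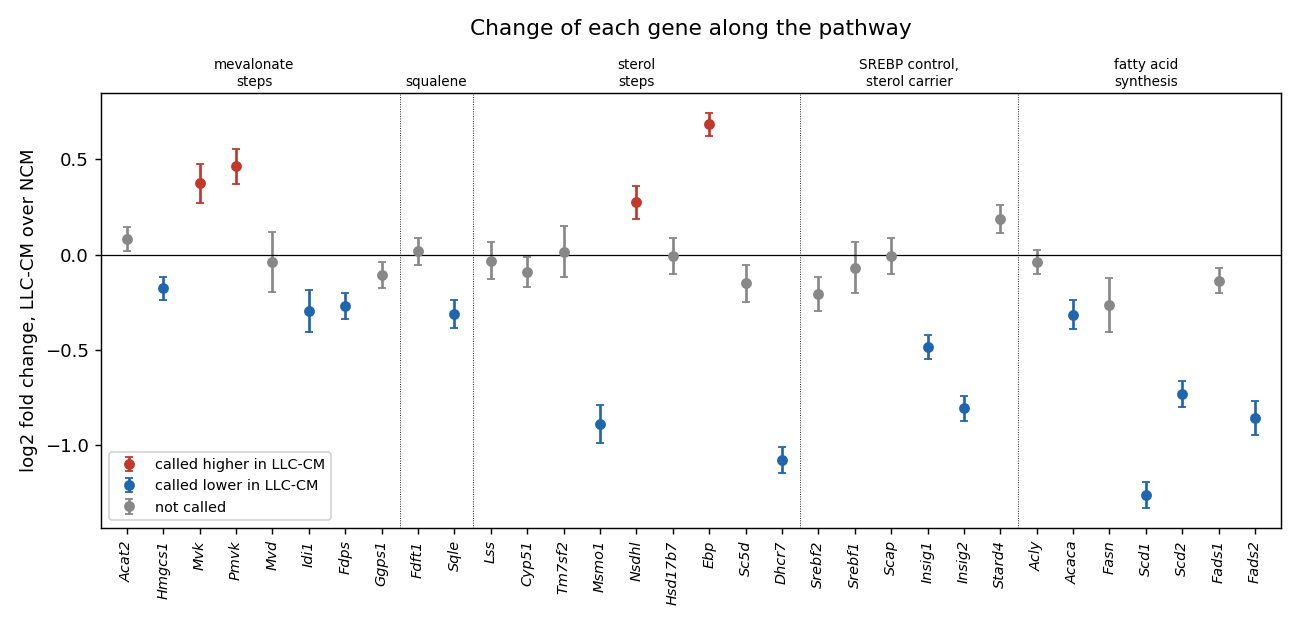
Log2 fold change of each gene, LLC-CM over NCM, with its standard error, from edgeR's quasi-likelihood fit (n = 4 libraries per group). Genes run from left to right along the mevalonate, squalene and sterol steps, then the SREBP control genes and fatty acid synthesis. Red and blue points are called higher and lower in LLC-CM, and the 4 red points (Mvk, Pmvk, Nsdhl and Ebp) lie in the mevalonate and sterol steps.

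The libraries held between 27264212 and 35573953 counts, and 3 counts, the limit that a count of 0 allows, came to 0.111 counts-per-million (CPM) in the shallowest, which covers counting error only. The lowest value of any of the 32 genes was 4.99 CPM, so none was near that limit. Of 6 osteoblast markers, all fell in LLC-CM, and their summed level ran from 20830 to 26140 CPM in LLC-CM and from 29310 to 38430 CPM in NCM. The matrix genes Col1a1 and Ibsp stayed the most abundant of them, at means of 12640 and 10180 CPM in LLC-CM and 17790 and 13890 CPM in NCM, and carried the sum. The other 4 fell further, with Bglap at 1.55 CPM in LLC-CM and 128 CPM in NCM, Alpl at 13.7 CPM in LLC-CM and 62.6 CPM in NCM, Sp7 2.30-fold lower in LLC-CM and Runx2 1.99-fold lower. Of 9 adipocyte markers, Fabp4 and Cebpa rose, Lipe was not called, and the other 6 were too low to test. Plin1 was at 0 in every LLC-CM library, and Cidec and Cfd were at 0 in all 8 libraries. The summed level of the 9 ran from 20.5 to 27.9 CPM in LLC-CM and from 11.8 to 13.7 CPM in NCM. Among macrophage markers, 5 of 6 were in the table and 4 were tested. Lyz2 and Fcer1g rose, Csf1r and Cd68 were not called, and Ptprc was at 0 in LLC-CM and averaged 0.035 CPM in NCM. Their summed level ran from 18.7 to 32.3 CPM in LLC-CM and from 11.7 to 17.4 CPM in NCM. None of 6 epithelial or 4 endothelial markers reached the filter. The epithelial sum ran from 0 to 0.161 CPM in LLC-CM and from 0.068 to 0.177 CPM in NCM, with Epcam, Krt8 and Krt18 at 0 throughout. The endothelial sum ran from 0.168 to 0.225 CPM in LLC-CM and from 0.136 to 0.247 CPM in NCM, with Cdh5, Kdr and Tie1 at 0 throughout. The part of these marker levels in the results was not tested.

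The promoters of 5 members are shown with any matches to sequence elements that SREBPs or their usual partners are known to bind. Of these genes Ebp rose, and Hmgcs1, Msmo1, Dhcr7 and Insig2 fell. Sequences are RefSeq's for GRCm38.p6, the assembly that mm10 also names, and each is the 200 bases before an annotated start, read along the gene's strand. Capitals mark exact matches, on either strand, to TCACNCCAC (a core of the sterol regulatory element), CCAAT (the box bound by NF-Y), CACGTG (an E-box) or GGGCGG (the GC box bound by Sp1). Of those shown, Dhcr7 and Insig2 had the largest change among the sterol-step and the control genes, and Hmgcs1, Msmo1 and Ebp were chosen after values and matches were seen. Hmgcs1 lies at chr13:119690151-119690350 (plus strand), Msmo1 at chr8:64733579-64733778 (minus), Ebp at chrX:8193513-8193712 (minus), Dhcr7 at chr7:143822967-143823166 (plus, the first of 3 listed starts) and Insig2 at chr1:121332590-121332789 (minus, the most upstream of 3).
Hmgcs1: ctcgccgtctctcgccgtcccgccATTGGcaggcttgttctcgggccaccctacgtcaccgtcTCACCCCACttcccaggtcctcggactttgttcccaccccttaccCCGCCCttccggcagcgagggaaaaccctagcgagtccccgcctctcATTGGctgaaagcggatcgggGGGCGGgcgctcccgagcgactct
Msmo1: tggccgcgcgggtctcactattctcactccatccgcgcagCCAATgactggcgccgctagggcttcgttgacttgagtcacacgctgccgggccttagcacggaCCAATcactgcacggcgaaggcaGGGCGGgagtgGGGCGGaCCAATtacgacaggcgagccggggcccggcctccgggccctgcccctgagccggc
Ebp: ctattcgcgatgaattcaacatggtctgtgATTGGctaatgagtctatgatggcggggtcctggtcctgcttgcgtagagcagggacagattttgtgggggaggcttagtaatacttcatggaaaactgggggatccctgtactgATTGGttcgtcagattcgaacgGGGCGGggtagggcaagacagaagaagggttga
Dhcr7: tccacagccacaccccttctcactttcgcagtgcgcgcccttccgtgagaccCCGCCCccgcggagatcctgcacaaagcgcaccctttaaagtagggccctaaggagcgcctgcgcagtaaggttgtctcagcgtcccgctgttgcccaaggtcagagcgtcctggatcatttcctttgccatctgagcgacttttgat
Insig2: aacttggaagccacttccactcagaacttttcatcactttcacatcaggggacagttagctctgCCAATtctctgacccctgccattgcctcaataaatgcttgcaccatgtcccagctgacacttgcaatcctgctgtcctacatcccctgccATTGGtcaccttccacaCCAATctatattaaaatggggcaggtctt

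In these stretches only Hmgcs1 held the sterol element core, once, with 2 CCAAT and 2 GC boxes. None of the stretches shown held an E-box. Msmo1, which fell, held 3 CCAAT and 2 GC boxes, and Ebp, which rose, held 2 CCAAT boxes and 1 GC box. Dhcr7 held 1 GC box before this start. Its next start had an E-box before it, and its last start 2 CCAAT boxes and 3 GC boxes. Insig2 held 3 CCAAT boxes before the start shown. Its other 2 starts each had 1 GC box and no CCAAT box before them. Promoters were listed for 25 of the 32 genes, with 33 starts between them. None was listed for the other 7 (Fdps, Fdft1, Sqle, Stard4, Scd1, Scd2 and Fads1), so their motifs are not known here. Within 250 bases before a start, 20 of these 25 genes (80.0%) had a CCAAT match, against 41% of 9575 genes with a mean of at least 10 counts. A GC box was present for 21 (84.0% against 64.0%), an E-box for 5 (20% against 9.88%) and the sterol element core for 1, Hmgcs1 (4% against 1.22%). No 2 different motifs overlapped. The CCAAT match was found for all 4 genes called higher, for 6 of 8 called lower and for 10 of 13 not called, so its presence did not separate the directions. A match is a description of letters and not a bound site.

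**Figure D2:**
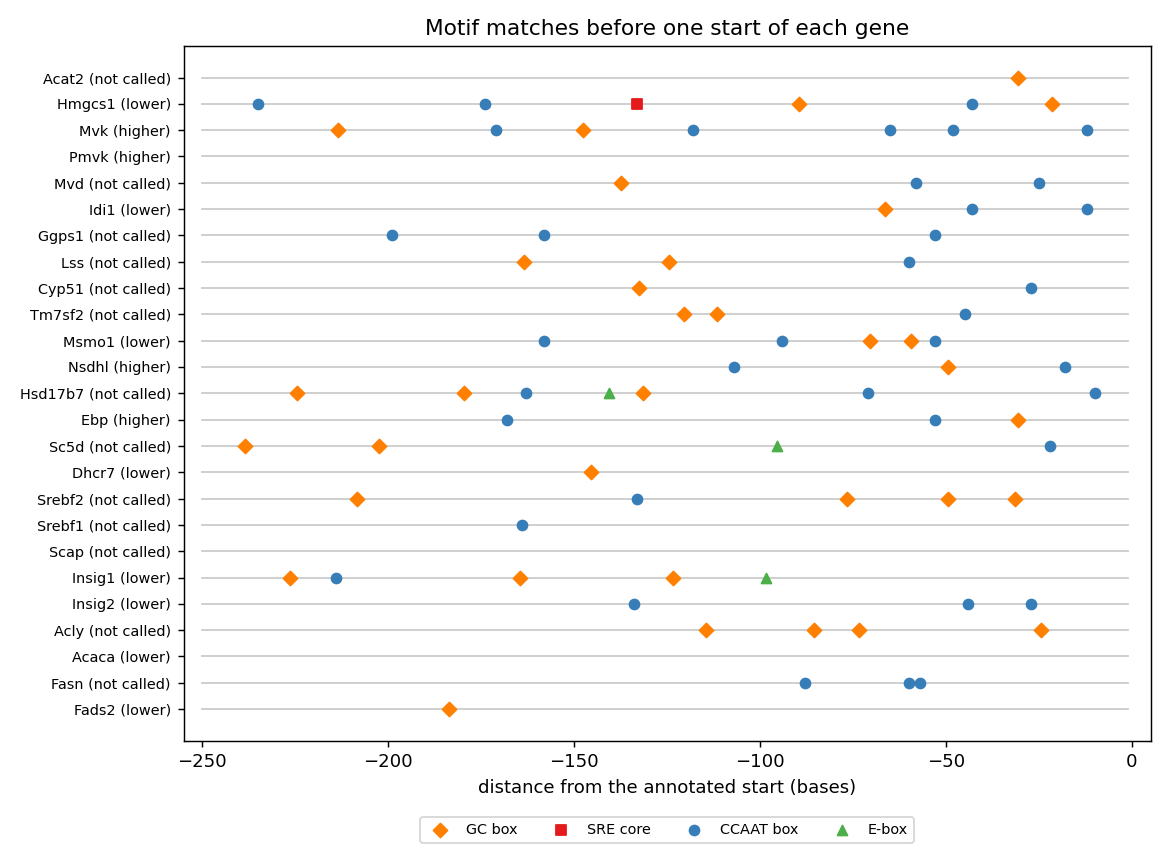
Position of each motif match, in bases before the start, for 1 start of each of the 25 genes with a listed promoter, the one closest to the gene end at 5′ in the deposited table. Rows follow the pathway from top to bottom, with the call of each gene in LLC-CM against NCM in brackets, and CCAAT and GC boxes are seen in rows of all 3 calls.

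The mevalonate steps had calls in both directions, with 2 of 8 genes higher, 3 lower and 3 not called. The shares were 25% higher and 37.5% lower, against 18.8% and 18.1% of all genes. Mvk and Pmvk encode the kinases that phosphorylate mevalonate in succession. Mvk had 10.8, 10.5, 10.9 and 12.5 CPM in LLC-CM libraries 1 to 4, against 8.59, 9.10, 9.32 and 7.63 CPM in NCM libraries 1 to 4. Pmvk had 21.7, 23.6, 22.5 and 22.7 CPM in LLC-CM, against 17.2, 17.9, 17 and 13.6 CPM in NCM. Every LLC-CM library was above every NCM library for both kinases. The log2 increase was 0.37 ± 0.10 for Mvk (SE, adjusted p = 0.011) and 0.46 ± 0.09 for Pmvk (adjusted p = 0.00096).

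Fdps, the farnesyl diphosphate synthase that bisphosphonates inhibit, fell. It had 45.6, 43.1, 39.2 and 39.6 CPM in LLC-CM, all below the NCM values of 47.4, 48.9, 51.1 and 54.4 CPM (log2 fold change -0.27 ± 0.07, adjusted p = 0.0067). In the GENCODE M21 annotation a gene model on the same strand, Gm43738, overlapped 26.7% of the exonic length of Fdps. Gm43738 was not among the genes counted in the deposited data. Hmgcs1, the synthase that makes HMG-CoA, had 90.6 to 100.0 CPM in LLC-CM and 98.5 to 114 CPM in NCM (adjusted p = 0.030). Idi1, the isomerase of isopentenyl diphosphate, had 8.47 to 11.4 CPM in LLC-CM and 11.4 to 13.8 CPM in NCM (adjusted p = 0.047). Both are called lower with groups that overlapped, and the calls were not firm. Hmgcs1 lost its call without LLC-CM replicate 3 (adjusted p = 0.054), LLC-CM replicate 4 (0.057) or NCM replicate 4 (0.078), at log2 fold changes of -0.15 to -0.18. Idi1 lost it in 13 of 20 alternative settings, with adjusted p from 0.027 to 0.68 over the 20. They include all 8 libraries with upper-quartile factors (0.057), with library size alone (0.053) or with no filter on low counts (0.051). They also include fits without LLC-CM replicates 2 (0.12) or 4 (0.094) or NCM replicates 1 (0.078), 2 (0.069) or 4 (0.13).

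Acat2, the thiolase that opens the route, Mvd, the decarboxylase after the kinases, and Ggps1, which makes the geranylgeranyl group on a side branch, were not called, with log2 fold changes of 0.08 ± 0.06, -0.04 ± 0.16 and -0.11 ± 0.07 (SE). Mvd was the most variable member in LLC-CM, at 4.99 CPM in replicate 2 and 6.92 to 8.60 CPM in the other 3. Reads of Acat2 may be shared with Acat3, whose transcript matched 65.6% of the longest Acat2 transcript at 97.7% identity. A Tcp1 transcript matched 19.8% of it at 98.7% identity. Total counts were 149378 for Tcp1, 1550 for Acat3 and 10171 for Acat2.

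At the squalene steps Fdft1, squalene synthase, was not called, at 39.4 ± 3.31 CPM in LLC-CM and 38.9 ± 1.39 CPM in NCM (SD, n = 4). Exons of the abundant lysosomal protease gene Ctsb overlapped 18.3% of its exonic length on the other strand, and the library kit does not mark strand, so reads in the shared stretch could come from either gene. Sqle, the epoxidase that controls flow into sterols, fell. It had 45.5, 42.5, 44.8 and 39.9 CPM in LLC-CM, against 51.4, 50.9, 50.7 and 61.3 CPM in NCM, and the groups did not overlap. The log2 fold change was -0.31 ± 0.07 (adjusted p = 0.0040), and -0.25 without NCM replicate 4, the high library (adjusted p = 0.012).

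Of the 9 sterol-step genes, 2 rose, 2 fell and 5 were not called. The shares, 22.2% in each direction, were near those of all genes (18.8% higher and 18.1% lower). The earliest of them, Lss, which closes the rings of lanosterol, Cyp51, which removes a methyl group from it, and Tm7sf2, a sterol reductase, were not called. Their log2 fold changes were -0.03 ± 0.10, -0.09 ± 0.08 and 0.02 ± 0.14 (SE). Cyp51 had 70.8 to 76.9 CPM in LLC-CM and 70.0 to 75.3 CPM in 3 NCM libraries, with NCM replicate 4 at 93.5 CPM.

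Msmo1, Nsdhl and Hsd17b7 encode the oxidase, the dehydrogenase and the reductase that together strip the next methyl groups from the sterol ring, and each behaved differently. Msmo1 (chromosome 8, 64718139 to 64733792, mm10) had 32.9, 36.5, 28.2 and 27.4 CPM in LLC-CM, against 56.3, 53.8, 53.3 and 67.7 CPM in NCM. Its highest LLC-CM library stayed well below its lowest NCM library, and it was 1.85-fold lower in LLC-CM (log2 fold change -0.89 ± 0.10, adjusted p = 5.3e-06). Nsdhl had 32, 35, 31.6 and 31.6 CPM in LLC-CM, against 27.3, 27, 22.8 and 30.5 CPM in NCM. The groups stood close to each other without overlap, and Nsdhl rose by 0.28 ± 0.09 (adjusted p = 0.021). It lost that call without NCM replicate 2 (adjusted p = 0.053) or NCM replicate 3 (0.065). Hsd17b7 was not called, at 29.9 ± 3.82 CPM in LLC-CM and 30.1 ± 2.49 CPM in NCM (SD, n = 4).

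Ebp, the isomerase that shifts a double bond of the sterol ring, had the largest increase of the 32 genes. Ebp (chromosome X, 8185329 to 8193512) had 135, 144, 122 and 139 CPM in LLC-CM, against 85.1, 84.2, 86.8 and 80.0 CPM in NCM. The lowest LLC-CM value was well above the highest NCM value, and the log2 fold change was 0.68 ± 0.06 (adjusted p = 4e-07). Sc5d, the desaturase that acts next, was not called, at 19.3 ± 1.81 CPM in LLC-CM and 21.4 ± 2.56 CPM in NCM (SD, n = 4).

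Dhcr7, the reductase that makes cholesterol from 7-dehydrocholesterol, the sterol from which skin makes vitamin D, had the largest decrease among the sterol enzymes. Dhcr7 (chromosome 7, 143823145 to 143848410) had 23.9, 22.4, 24.7 and 24.1 CPM in LLC-CM, against 48.4, 49.2, 55.1 and 48.3 CPM in NCM. Values were tight within each group and far apart between them, 2.11-fold lower in LLC-CM (log2 fold change -1.08 ± 0.07, adjusted p = 9.2e-09). Over the 8 leave-one-library-out fits the log2 fold change stayed between -1.11 and -1.04.

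**Figure D3:**
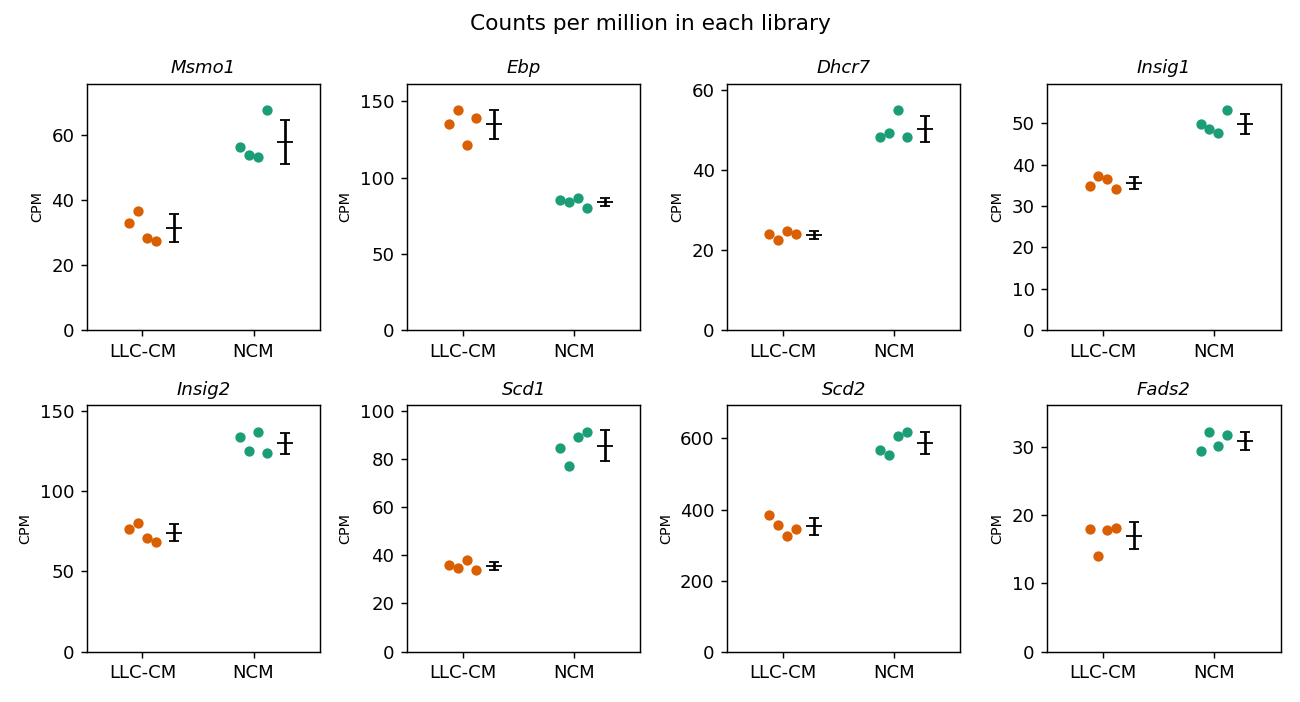
CPM in each LLC-CM and NCM library for the members past the threshold with a log2 fold change of at least 0.5 in size, and for Insig1. Points are libraries, the bar beside them is the mean with its SD (n = 4), and each axis starts at 0. Ebp is the single panel with the 4 LLC-CM libraries on top.

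Among the control genes both Insig genes fell, and the other 4 were not called (33.3% called, against 36.9% of all genes). Insig1, an endoplasmic reticulum anchor of Scap that SREBPs themselves induce, had 34.7, 37.2, 36.4 and 34.0 CPM in LLC-CM, against 49.9, 48.6, 47.5 and 53.2 CPM in NCM. Insig2, its paralog (chromosome 1, 121304353 to 121332589), had 76.6, 80.5, 71.2 and 68.4 CPM in LLC-CM, against 134, 125, 137 and 124 CPM in NCM. For both genes the groups were clearly apart. Insig1 fell by 0.49 ± 0.06 on the log2 scale (adjusted p = 2e-05) and Insig2 fell by 0.81 ± 0.06 (adjusted p = 1e-07). Per length of transcript, Insig2 was 1.52 to 1.71 times as abundant as Insig1 in LLC-CM libraries and 1.81 to 2.24 times in NCM libraries.

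Srebf2, the SREBP of the sterol genes, had 47.0, 41.7, 56.3 and 52.9 CPM in LLC-CM, against 52.8, 56.8, 63.4 and 55.8 CPM in NCM. The groups overlapped, and the log2 fold change of -0.21 ± 0.09 missed the threshold (adjusted p = 0.081). It passed without LLC-CM replicate 3 (log2 fold change -0.28, adjusted p = 0.022). Srebf1, the lipogenic SREBP, had 18.6, 18.2, 22.8 and 25.1 CPM in LLC-CM, against 19.4, 23.1, 27.8 and 18.8 CPM in NCM. Its spread within either group exceeded the difference between them (log2 fold change -0.07 ± 0.13, adjusted p = 0.73).

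Scap, the escort, had 29.1, 25.2, 32.1 and 33.4 CPM in LLC-CM, against 28.9, 29.4, 34.6 and 27.8 CPM in NCM (log2 fold change -0.01 ± 0.10, adjusted p = 0.97). Stard4, a soluble carrier that moves sterol between membranes, had 39.2, 40.5, 42.6 and 38.3 CPM in LLC-CM, against 35.0, 33.7, 33.0 and 39.6 CPM in NCM. Only NCM replicate 4 reached the LLC-CM range. Stard4 missed the threshold (log2 fold change 0.19 ± 0.07, adjusted p = 0.059) and passed it without that library (0.24, adjusted p = 0.019).

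All 7 fatty acid genes had a negative log2 fold change, and 4 of them were called lower (57.1% against 18.1% of all genes). Scd1 and Scd2 are stearoyl-CoA desaturases, which put the double bond into oleate. Scd1 (chromosome 19, 44394451 to 44407709) had 35.9, 34.6, 38.1 and 34.1 CPM in LLC-CM, against 84.7, 76.9, 89.2 and 91.3 CPM in NCM. That was the largest decrease of the 32 genes, 2.40-fold lower in LLC-CM (log2 fold change -1.26 ± 0.07, adjusted p = 1.3e-09). Scd2 (chromosome 19, 44293676 to 44306864) had 385, 356, 326 and 346 CPM in LLC-CM, against 568, 553, 608 and 619 CPM in NCM. It was 1.66-fold lower in LLC-CM (log2 fold change -0.73 ± 0.07, adjusted p = 6.8e-07). Per length, Scd2 exceeded Scd1 by 7.59 to 9.52 times in LLC-CM libraries and by 5.95 to 6.38 times in NCM libraries, and the groups did not overlap. Transcripts of the pair matched at 95.5% identity over 11.4% of the Scd2 transcript, so some reads could not be split between them.

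Fads2, the desaturase that starts the synthesis of long polyunsaturated fatty acids, had 18.1, 14.1, 17.9 and 18.1 CPM in LLC-CM, against 29.5, 32.3, 30.1 and 31.8 CPM in NCM. It was 1.81-fold lower in LLC-CM (log2 fold change -0.86 ± 0.09, adjusted p = 1.8e-06). Fads1, its neighbour on chromosome 19 and the next desaturase of that route, was not called, at 115 ± 4.41 CPM in LLC-CM and 126 ± 10.7 CPM in NCM (SD, n = 4).

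Of the genes that make the saturated chain, Acaca was called. Acly, which makes cytosolic acetyl-CoA from citrate, was not called (log2 fold change -0.04 ± 0.06). Acaca, the carboxylase that makes malonyl-CoA, had 75.3, 59.6, 74.5 and 71.5 CPM in LLC-CM, against 92.7, 91.0, 85.2 and 80.8 CPM in NCM. It fell by 0.32 ± 0.08 with no overlap of groups (adjusted p = 0.0041). A processed pseudogene, Gm5182, matched 64.3% of its longest transcript at 99.2% identity. Fasn, the synthase itself, had 72.8, 59.0, 91.1 and 99.0 CPM in LLC-CM, against 86.0, 97.7, 112 and 91.6 CPM in NCM, and missed the threshold (log2 fold change -0.27 ± 0.14, adjusted p = 0.18).

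Levels can be compared between genes only per length, here as CPM per kilobase of the length listed in the table. Scd2 was the most abundant member in both groups, at 64.8 ± 4.49 CPM per kilobase in LLC-CM and 108 ± 5.72 in NCM (SD, n = 4). Ebp held rank 2 in LLC-CM, at 58.4 ± 4.18, and rank 5 in NCM, at 36.4 ± 1.24. Insig2 was at 21.4 ± 1.56 in LLC-CM and 37.4 ± 1.88 in NCM, and in NCM it did not differ from Ebp beyond their SDs. Lss and Tm7sf2 were the lowest in both groups, between 2.21 and 2.54 CPM per kilobase. The order of several genes depended on the length used, and for 6 of the 32 (Fdps, Fads2, Sc5d, Ggps1, Scap and Dhcr7) the summed exons of GENCODE M21, a comparison chosen after seeing the data, were over 1.5 times as long as the listed length. Fdps held rank 3 in LLC-CM and rank 2 in NCM with the listed length of 1241 bases (33.7 CPM per kilobase in LLC-CM and 40.7 in NCM). With the M21 length of 4208 bases it held rank 12 in LLC-CM and rank 11 in NCM (9.95 CPM per kilobase in LLC-CM and 12.0 in NCM). Scd2 and Ebp kept ranks 1 and 2 in LLC-CM with the M21 lengths, and Lss and Tm7sf2 stayed lowest in both groups. The lengths were equal for Ebp and Lss and close for Scd2 (5453 bases listed, 5464 in M21). The comparison could thus hardly move the levels of these genes themselves. Scd1 held rank 20 in LLC-CM and rank 11 in NCM with listed lengths, and rank 17 in LLC-CM and rank 8 in NCM with M21 lengths.

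**Figure D4:**
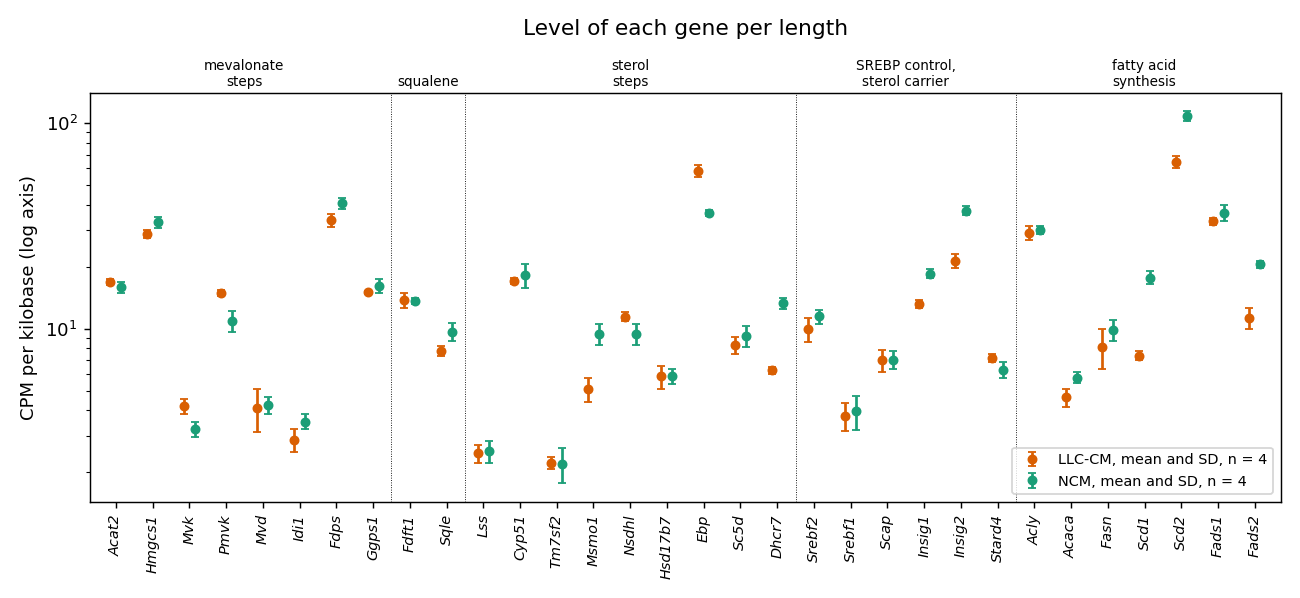
Mean CPM per kilobase of listed gene length (log axis) in LLC-CM and NCM, with the SD over 4 libraries, in pathway order and with the lengths listed in the deposited table. Scd2 is highest in both groups and Lss and Tm7sf2 lowest.

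Libraries of 1 group also differed from each other over these genes. Of the 19 enzymes from Acat2 to Dhcr7, NCM replicate 4 was the highest NCM library for 11, while it was the highest for 25.0% of all genes tested. NCM replicate 3 was the lowest NCM library for 11 of the 19. The share of all genes with replicate 3 lowest was not counted. Replicate 3 was the highest NCM library for 31.3% of all genes tested. The median of the 19 lay 0.15 above the mean of the other 3 NCM libraries on the log2 scale in replicate 4 and 0.14 below it in replicate 3, with all-gene medians of -0.01 and 0.00. Without NCM replicate 4, 5 of the 32 genes were called higher and 10 lower, and without NCM replicate 3, 3 were higher and 12 lower. Msmo1 and Dhcr7 kept log2 fold changes of -0.81 and -1.11 without NCM replicate 4. Some genes shared an order of libraries in both groups. Srebf1, Srebf2, Scap, Fasn and Mvd were each lowest in LLC-CM replicate 2 and highest in LLC-CM replicate 3 or 4. In NCM each of them was highest in replicate 3 and lowest in replicate 1 or 4. Mvk, Tm7sf2, Dhcr7 and Acly, from other steps, met the same description in both groups. The share of all genes that meet it was not counted, so it is not shown to be particular to these genes. What separates these libraries was not tested.

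**Figure D5:**
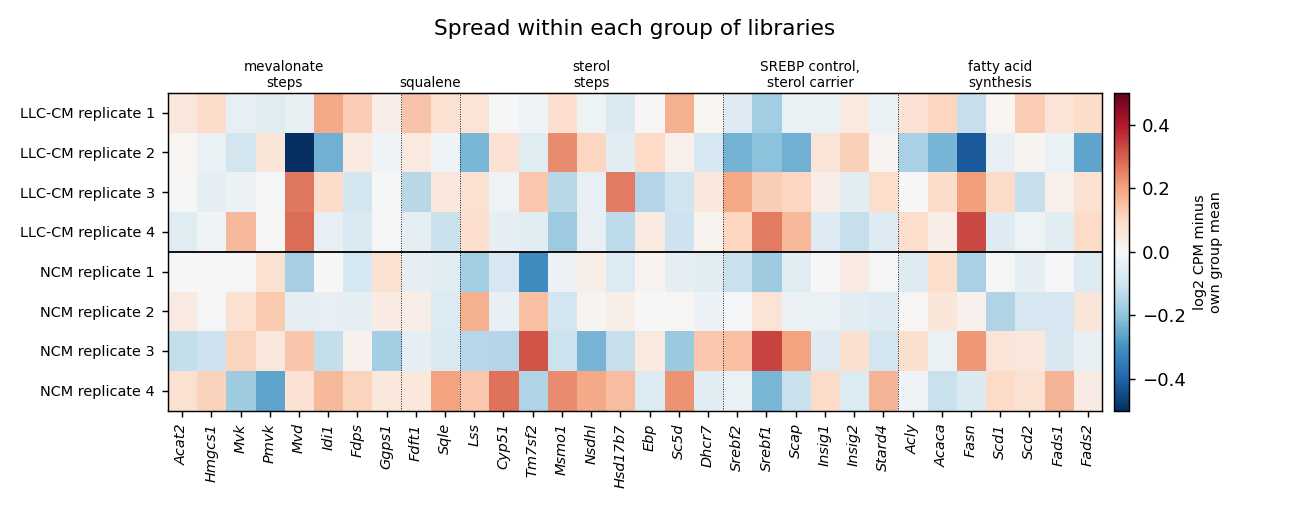
Log2 CPM of each gene in each library minus the mean of its own group, on a colour scale from -0.5 to 0.5, with LLC-CM libraries above NCM libraries. Red is above and blue below the group mean. NCM replicate 4 is the highest NCM library for 11 of the 19 enzymes from Acat2 to Dhcr7. LLC-CM replicate 2 is blue at Mvd, Srebf1, Srebf2, Scap and Fasn, and at other genes too.

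The genes that process SREBPs and degrade sterol-sensing proteins were called at 55.6% (2 of 9 higher and 3 lower, median log2 fold change 0.01), against 36.9% of all genes. Erlin1 and Erlin2 encode scaffold proteins of the endoplasmic reticulum that bind cholesterol and restrain SREBP activation. Erlin1 averaged 52.7 ± 4.49 CPM in LLC-CM and 39.1 ± 2.56 CPM in NCM (SD, n = 4), and it rose by 0.43 ± 0.07 on the log2 scale (adjusted p = 0.0003). Erlin2 averaged 50.1 ± 1.29 CPM in LLC-CM and 42.3 ± 2.67 CPM in NCM, and it rose by 0.25 ± 0.06 (adjusted p = 0.0063). Rnf145, a ubiquitin ligase that takes part in sterol-driven degradation, averaged 91.8 ± 2.91 CPM in LLC-CM and 105 ± 3.29 CPM in NCM (SD, n = 4), and it fell by 0.19 ± 0.05 (adjusted p = 0.0094). Mbtps2, the second protease that cuts SREBPs, was also called lower.

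Of 14 genes that use the isoprenoid products, 1 was called (7.14%, median log2 fold change -0.02), against 36.9% of all genes. That gene was Rabggta, a subunit of the transferase that puts geranylgeranyl groups on Rab proteins, at 10.5 ± 0.603 CPM in LLC-CM and 13.8 ± 1.52 CPM in NCM (SD, n = 4; log2 fold change -0.38 ± 0.10, adjusted p = 0.0075). The other 13 genes of the list, among them those of protein farnesylation, dolichol and coenzyme Q synthesis, were not called.

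Of 17 further fatty acid synthesis genes tested, 3 rose and 5 fell (47.1% called against 36.9% of all genes, median log2 fold change -0.06). Me1, the malic enzyme that supplies NADPH in the cytosol, averaged 50.4 ± 3.85 CPM in LLC-CM and 146 ± 9.28 CPM in NCM (SD, n = 4). It fell by 1.54 ± 0.07 on the log2 scale (adjusted p = 1.7e-10). Scd4, another stearoyl-CoA desaturase, fell at a low level, with 2.39 ± 0.824 CPM in LLC-CM and 4.92 ± 0.591 CPM in NCM (adjusted p = 0.00083). Acss2, which makes acetyl-CoA from acetate and is itself known as an SREBP target, went the other way, at 26.2 ± 3.56 CPM in LLC-CM and 19.5 ± 1.91 CPM in NCM (log2 fold change 0.43 ± 0.10, adjusted p = 0.0043). Elovl7, a fatty acid elongase, rose at a low level, at 1.07 ± 0.502 CPM in LLC-CM and 0.353 ± 0.152 CPM in NCM (adjusted p = 0.0062).

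Of 15 genes of sterol storage, transport and oxysterol sensing that were tested, 4 rose and 5 fell (60.0% called against 36.9% of all genes, median log2 fold change 0.05). Osbpl2, an oxysterol-binding lipid carrier, averaged 66.5 ± 2.81 CPM in LLC-CM and 103 ± 1.43 CPM in NCM (SD, n = 4; log2 fold change -0.63 ± 0.05, adjusted p = 2.3e-07). Tmem97, an endoplasmic reticulum protein known as an SREBP target, averaged 52.9 ± 1.52 CPM in LLC-CM and 69.5 ± 2.88 CPM in NCM (log2 fold change -0.39 ± 0.06, adjusted p = 5.5e-05). Cyp7b1, which hydroxylates oxysterols, and Nr1h3, the oxysterol receptor LXR alpha, rose at low levels. Cyp7b1 averaged 1.85 ± 0.777 CPM in LLC-CM and 0.342 ± 0.0439 CPM in NCM (log2 fold change 2.43 ± 0.33, adjusted p = 3e-05). Nr1h3 averaged 1.88 ± 0.325 CPM in LLC-CM and 0.596 ± 0.134 CPM in NCM (log2 fold change 1.65 ± 0.24, adjusted p = 7.3e-05).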

How the data were processed

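Poly(A) RNA from 8 libraries was prepared with a TruSeq kit that does not mark strand. The authors deposited 1 table of raw read counts per gene (whole numbers) with a listed gene length. The submitters' processing notes name the tools CASAVA, STAR and featureCounts and the build mm10. Their versions, and how reads matching several genes were counted, are not given in the sources used here. Libraries held 27264212 to 35573953 counts. Within a group no pair of libraries agreed within sampling noise (chi-square per degree of freedom of at least 7.07).

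All genes were fitted with edgeR 4.0.16 in R 4.3.3 (TMM factors, filterByExpr, robust quasi-likelihood F test), comparing 4 LLC-CM with 4 NCM libraries, with Benjamini-Hochberg adjustment over 14991 genes and a threshold of 0.05. The SE of a log2 fold change is its size divided by the root of F. Totals for CPM were scaled by the TMM factors, and counting limits cover counting error only. Alternatives used DESeq2 1.42.0, limma 3.58.1, other scaling factors and filters, and fewer libraries. Overlapping and similar transcripts were sought in GENCODE M21 with blastn 2.17.0. Promoters are from RefSeq.

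The 32 genes and the lists around them were chosen with earlier results of these data known. Every member is named, with values per library for regulators and for called members with a log2 fold change of at least 0.5. From each surrounding list, up to 4 genes with the smallest adjusted p are named. One gene that this rule selects is not reported here. Rows per library for other members, and names beyond these, were chosen after values were seen.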

Additional observations from a re-analysis of the deposited data

Results flagged for a closer look

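In 6 of 64 sets of 4 values (each of the 32 genes in each group), 1 library stood apart from the other 3 by more than the 95% critical value of Dixon's test. Chance gives about 5% of sets. LLC-CM replicate 2 was low for Lss (22.74 CPM, the nearest library at 27.9) and Fads2 (14.09 CPM, nearest 17.9), and high for Nsdhl (35.05 CPM, nearest 32). NCM replicate 4 was high for Sqle (61.32 CPM, nearest 51.4). NCM replicate 3 was low for Ggps1 (33.92 CPM, nearest 39.3) and high for Dhcr7 (55.07 CPM, nearest 49.2). What set these libraries apart was not tested.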

How the results depend on the processing

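Under 20 alternative settings, Dhcr7, Ebp, Fads2, Insig1, Insig2, Msmo1, Scd1 and Scd2 were called in each, and no member changed direction past the threshold. The other 8 called members lost their call in at least 1 setting, 4 of them (Hmgcs1, Idi1, Mvk and Nsdhl) with 7 or more libraries. With 7 or more libraries, Mvk lost it only at the stricter threshold of 0.01. DESeq2 called 5737 genes with 4 members higher and 12 lower, and limma-voom 5525 with 4 and 12. Leaving out 1 library gave 4912 to 5501 genes, 3 to 5 members higher and 10 to 12 lower. Odd-numbered libraries alone gave 3034 genes, with 1 member higher and 7 lower. Even-numbered libraries alone gave 3145 genes, with 2 members higher and 9 lower. These runs hold 2 libraries per group, and fewer samples were tested. At an adjusted p of 0.01, a stricter threshold, 2 members were higher and 10 lower. No label states that replicate numbers pair the libraries. Same-number correlations over all genes were 0.07, -0.04, 0.20 and -0.03, and not every library correlated best with its own number. Over the 32 genes they were 0.29, -0.22, 0.38 and -0.56. These correlations show no clear pairing but cannot exclude it. The fit with the replicate block gave 5473 genes, 4 members higher and 13 lower, adding Srebf2 (-0.21, adjusted p = 0.032). With library-size CPM, 0 of 64 levels per kilobase moved by more than their SD. With M21 exonic lengths, an alternative chosen after seeing the data, the level of 14 of the 32 genes did. With the longer promoter window, 0 of 4 motif shares moved beyond their interval.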
